A study of Mus musculus with 6 samples.

Results

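The respiratory chain passes electrons through complexes I to IV of the inner mitochondrial membrane, and complex V, the ATP synthase, makes ATP from the proton gradient that this sets up. Its subunits come from 2 genomes: most are encoded in the nucleus, made in the cytosol and imported, while the mitochondrial genome encodes a small core of complexes I, III, IV and V and none of complex II. Tumor cells, macrophages and stromal cells all carry these complexes, and a few subunits exist in forms that are typical of muscle, testis or oxygen-poor tissue.

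The 100 genes described here are the rows of the deposited table whose gene name is that of a subunit of complexes I to V. They were chosen by gene name, out of 33965 genes in all, and no measured value entered the name rule. The group was proposed with results of the same GB2 to PBS comparison in view, so the fold changes below are given as a description. Of the members, 87 are encoded in the nucleus, with 41 in complex I, 4 in complex II, 8 in complex III, 17 in complex IV and 17 in complex V. The other 13 are encoded in the mitochondrial genome, with 7 in complex I, 1 in complex III, 3 in complex IV and 2 in complex V. The complex of each member was taken from its gene name, which places Ndufa4 and Ndufa4l2 in complex I. This placement follows the name alone and need not be the complex that holds the protein. Sums and medians by complex rest on it. All 13 mitochondrial members and 84 of the 87 nuclear members had enough counts to be tested.

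The data are bulk RNA-seq of 6 MC38 tumors, a mouse colon carcinoma line grown under the skin of C57BL/6 mice. Vehicle (PBS) was given in 3 cases and GB2 in the other 3, and the labels name no genetic change in either group. GB2 is a prodrug that joins MSA-2, an agonist of the innate immune sensor STING, to artesunate through a disulfide bond. The methods give female mice 6 weeks old when bought. The study's figure captions give 10 mg/kg GB2 by the intravenous route for this tumor model. The time at which the sequenced tumors were taken is not given in the sources used here. Nothing in the labels says that the 3 tumors of a group came from separate mice, though the study describes its replicates in general as biological. The p-values measure the spread between these samples, whatever its source.

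Total estimated counts ran from 64764405 in PBS tumor 1 to 83690056 in GB2 tumor 2. PBS tumor 1 stood apart from the other 5 libraries: it lay alone at one end of the first principal component over all genes tested, which held 34.0% of the variance. Hemoglobin and heme synthesis genes of red cells summed to 7473 CPM (counts scaled to library size) in that tumor and to between 94.6 and 2691 CPM in the others. The whole list of tumor epithelium markers (Epcam, Krt8, Krt18, Krt19 and Cdh1) summed to only 2.60 to 5.97 CPM in PBS and 3.64 to 7.74 CPM in GB2 tumors, and none of the 5 was at 0 in all tumors. Values without PBS tumor 1 are given beside those fold changes and medians that it moves by over 1.5 times.

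Sequences are shown first where they bear on how the counts can be read. 2 pairs of mitochondrial genes share bases. mt-Atp8, a subunit of complex V, ends inside mt-Atp6, and the shared 43 bases are in capitals in the line below, which covers positions 7766 to 7969 of the mitochondrial genome (GRCm38, plus strand). The last 30 bases of mt-Nd4l, positions 10144 to 10173, share their final 7 bases with mt-Nd4, again in capitals.
mt-Atp8: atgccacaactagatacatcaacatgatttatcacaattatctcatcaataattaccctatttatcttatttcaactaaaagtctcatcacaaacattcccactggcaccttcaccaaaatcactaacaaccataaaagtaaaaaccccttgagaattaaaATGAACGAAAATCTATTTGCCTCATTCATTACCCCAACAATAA
mt-Nd4l, last 30 bases: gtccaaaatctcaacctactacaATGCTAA

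Several mitochondrial members also have copies in the nuclear genome that cannot be told apart by sequence. On chromosome 1 (GRCm38, minus strand), the pseudogenes Gm28437 at chr1:24613189-24613971, Gm10925 at chr1:24613974-24614651 and Gm28661 at chr1:24614885-24615565 were identical over 783, 678 and 681 bases to mt-Co3, mt-Atp6 and mt-Co2. The deposited count of Gm28437 was 0.991 to 0.994 times that of mt-Co3 across the 6 tumors. Gm28661 had 0.985 to 0.989 times the count of mt-Co2, and Gm10925 1.01 to 1.06 times that of mt-Atp6. How reads that fit both places were divided is not given in the sources used here. Of the 13 mitochondrial members, 7 shared over 10% of their 75-base stretches with transcripts of another gene. They were mt-Nd3 (97.8%), mt-Nd4l (98.7%), mt-Nd4 (61.5%), mt-Co1 (39.8%), and mt-Co2, mt-Co3 and mt-Atp6 (99.5% to 99.9%). So did 13 of the 87 nuclear members, such as Atp5g2 with 35.8% and Ndufb4c, which the table lists as a processed pseudogene, with 100%. Counts of these members are uncertain to that extent.

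The start regions are shown because 72 of 84 tested nuclear members were highest in PBS tumor 1, against 31.8% of all genes tested. Whether the motifs bear on this was not tested. Of the 84 nuclear members tested, 68 had a promoter in the RefSeq table (GRCm38.p6), each 250 bases before to 50 after the start. The motif of the respiratory regulator NRF1, GCGCA and GCGC parted by 1 base, occurred on either strand in 17 of 68 members (25%) and in 9.78% of the 12646 tested genes with a promoter. The ETS motif CCGGAAG, read by factors such as GABPA, occurred in 17 of 68 members and in 17.5% of all, and the YY1 motif AAGATGGCG in 10.3% and 3.00%. The hypoxia motif ACGTG occurred in 26.5% of members and 27.8% of all, TATAAA in 10.3% and 10.1%, and the estrogen-related receptor motif TCAAGGTCA in 2.94% and 0.340%. The lines below give the 250 bases upstream of Cox6a1 (chr5:115348959-115349208, minus strand) and Atp5h (chr11:115419920-115420169, minus strand), which hold NRF1 and ETS motifs, and of Ndufv3 (chr17:31519865-31520114, plus strand), the subunit with the smallest p, whose 250 bases hold none of the 6 motifs. Capitals mark NRF1 and ETS matches.
Cox6a1: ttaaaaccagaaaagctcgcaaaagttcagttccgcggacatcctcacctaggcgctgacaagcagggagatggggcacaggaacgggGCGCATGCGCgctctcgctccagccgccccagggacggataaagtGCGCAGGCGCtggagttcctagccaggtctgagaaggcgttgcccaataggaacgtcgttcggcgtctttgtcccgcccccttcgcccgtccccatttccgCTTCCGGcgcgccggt
Atp5h: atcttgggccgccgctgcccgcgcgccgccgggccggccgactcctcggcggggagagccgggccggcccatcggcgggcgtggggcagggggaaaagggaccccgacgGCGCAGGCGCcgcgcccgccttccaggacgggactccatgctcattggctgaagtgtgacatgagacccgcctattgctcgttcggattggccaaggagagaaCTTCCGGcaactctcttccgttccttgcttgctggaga
Ndufv3: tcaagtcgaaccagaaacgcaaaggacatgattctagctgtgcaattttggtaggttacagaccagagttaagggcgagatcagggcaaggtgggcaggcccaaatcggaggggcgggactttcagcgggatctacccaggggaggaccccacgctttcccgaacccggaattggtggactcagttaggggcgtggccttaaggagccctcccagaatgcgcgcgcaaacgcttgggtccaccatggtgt

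The first comparison asks whether the genes of the mitochondrial genome differed between GB2 and PBS tumors. With all 6 tumors, 10 of 13 estimates were above 0 and the median log2 fold change was 0.17, against -0.02 over the 19602 genes tested. None of the 13 was called by edgeR's quasi-likelihood test, where a call needed at least a 2-fold difference at an adjusted p below 0.05. That rule called 0.0% of all genes tested. Without PBS tumor 1 all 13 estimates were below 0, with a median of -0.22, and 10 of 13 had turned their sign. Leaving out PBS tumor 2 gave a median of 0.53, leaving out the third PBS tumor 0.42, and leaving out GB2 tumor 3 gave 0.27. With the replicate number as a block it was 0.52, and on log2(FPKM + 1) 0.65.

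The vehicle tumors differed widely in these genes. Mitochondrial members took 0.936% of all counts in PBS tumor 1, 3.59% in PBS tumor 2 and 3.31% in PBS tumor 3. In the GB2 tumors they took 3.52%, 2.91% and 2.57%. PBS tumor 1 was thus the lowest of all, while the other 2 PBS tumors lay above at least 2 of the 3 GB2 tumors. In 11 of 13 mitochondrial members PBS tumor 1 was below every other tumor (84.6%), against 30.9% of all genes tested.

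The mitochondrial members did not differ by the same amount in PBS tumor 1. Relative to the mean of the other 5 tumors on the log2 CPM scale, the median difference was -2.14, and it ran from -3.98 for mt-Atp8 to 0.03 for mt-Nd3. mt-Atp8 had 65.8, 1145 and 1080 CPM in the PBS tumors and 1187, 965 and 865 CPM in the GB2 tumors. One vehicle tumor therefore stood far below all others for this gene, whose transcript is read together with mt-Atp6. mt-Atp6, the proton channel subunit of complex V, had 537, 3323 and 2886 CPM in PBS and 2839, 2567 and 2348 CPM in GB2 tumors. Without PBS tumor 1 its groups did not overlap, with a log2 fold change of -0.25 (SE 0.15).

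**Figure D1:**
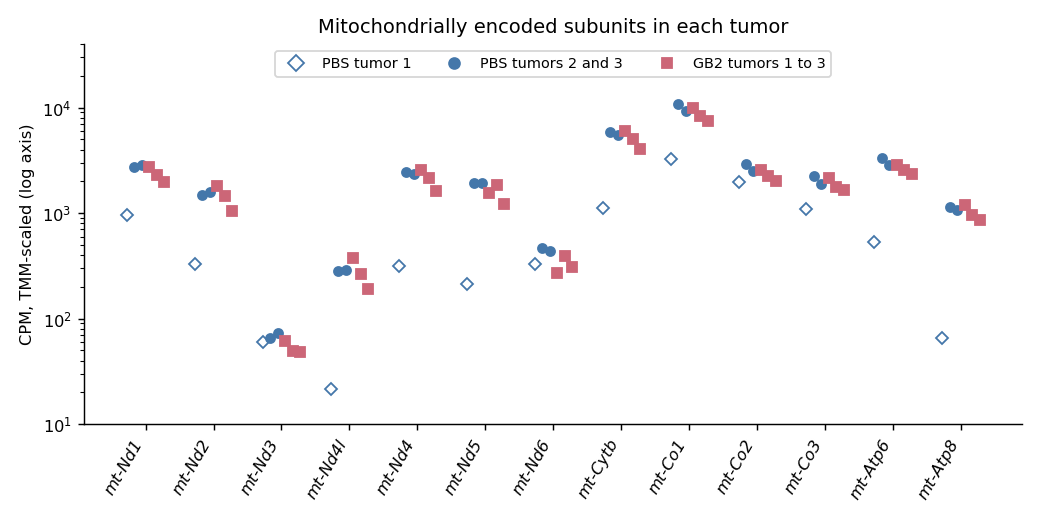
Level of the 13 mitochondrially encoded subunits in each tumor, in CPM on a log axis, with 1 symbol per tumor. PBS tumor 1 (open diamonds) lies below the other tumors for 11 of 13 genes, down to 21.4 CPM for mt-Nd4l, and within their range for mt-Nd3.

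Among the complex I genes, mt-Nd4l and mt-Nd4, which are read from 1 shared transcript, had 21.4 and 312 CPM in PBS tumor 1. In the other 5 tumors mt-Nd4l had 192 to 376 CPM and mt-Nd4 1602 to 2578 CPM. mt-Nd5 had 214 CPM in PBS tumor 1 and 1214 to 1946 CPM elsewhere. mt-Nd1 and mt-Nd2, membrane subunits next to each other on the genome, had 961 and 331 CPM in PBS tumor 1. Elsewhere they had 1988 to 2830 and 1053 to 1813 CPM. These 5 genes thus all had their lowest value in the same vehicle tumor, and no other tumor was low in all of them to that degree.

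mt-Nd6 and mt-Nd3 differed from this pattern. mt-Nd6, the only member transcribed from the opposite strand of the mitochondrial genome, had 327, 470 and 434 CPM in PBS and 273, 394 and 309 CPM in GB2 tumors. mt-Nd3 had 59.6, 65.1 and 73.0 CPM in PBS and 61.0, 49.0 and 48.4 CPM in GB2 tumors. Both overlapped between groups with all 6 tumors. Without PBS tumor 1 the GB2 tumors were lower with no overlap in both, at a log2 fold change of -0.46 (SE 0.18) for mt-Nd6 and -0.37 (SE 0.14) for mt-Nd3, and edgeR's adjusted p was 0.515 and 0.488. The same held for mt-Nd5, at -0.32 (SE 0.19), so that with mt-Atp6 4 of 13 mitochondrial members were lower in this way, against 12.7% of all genes. Whether counting used the strand is not given in the sources used here, so reads of mt-Nd6 and of transcripts from the other strand may not be separated.

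Complex IV has its 3 catalytic core subunits in the mitochondrial genome. mt-Co1, which holds the site of oxygen reduction, was the most abundant member per length, with a mean of 5106 FPKM, and had 3258, 10711 and 9323 CPM in PBS and 9884, 8277 and 7487 CPM in GB2 tumors. mt-Co2, which takes electrons from cytochrome c, had 1967, 2938 and 2480 CPM in PBS and 2545, 2228 and 2035 CPM in GB2 tumors. The gap of PBS tumor 1 was smaller for mt-Co2 (-0.30 on the log2 scale) and mt-Co3 (-0.83) than for mt-Co1 (-1.48). mt-Cytb, the core of complex III, had 1110 CPM in PBS tumor 1 and 4015 to 6012 CPM in the others. The ribosomal RNA genes of the same genome did not share the gap as a group: they took 0.0481% of counts in PBS tumor 1 and 0.0357% to 0.0580% elsewhere.

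The ratio of mitochondrially encoded to nuclear-encoded counts, which needs no scaling between libraries, was 0.581, 3.14 and 2.80 in PBS and 3.08, 2.52 and 2.29 in GB2 tumors. Its mean was 2.17 ± 1.39 (SD, n = 3) in PBS and 2.63 ± 0.404 (SD, n = 3) in GB2 tumors, a difference within the spread of the PBS tumors. The mean of PBS tumors 2 and 3 alone was 2.97.

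The second comparison concerns the nuclear-encoded subunits. With all 6 tumors, 77 of 84 tested nuclear members had an estimate below 0, and their median log2 fold change was -0.47, a median level in GB2 of 0.722 times that in PBS tumors. None was called by edgeR or by DESeq2, a second count test that called 1.96% of all genes. An unadjusted p under 0.05 was reached by 6 of 84, against 6.94% of all genes tested, and the smallest adjusted p was 0.345. The GB2 tumors were lower with no overlap in 32 of 84 (38.1%), against 6.68% of all genes, and higher with no overlap in none, against 8.61%.

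Most of this distance lay in PBS tumor 1. It was above every other tumor in 72 of 84 nuclear members (85.7%), against 31.8% of all genes tested. Nuclear members took 1.61% of all counts in PBS tumor 1 and 1.12% to 1.18% in each of the other 5 tumors. Without PBS tumor 1 the median log2 fold change was -0.10, with 64 of 84 below 0 and 64 of 84 within 0.2 of 0. The GB2 tumors were then lower with no overlap in 35 of 84, against 12.7% of all genes, and higher in 3 (Ndufa4l2, Cox4i2 and Atp5b), against 14.1%. An unadjusted p under 0.05 was reached by 5 nuclear and 2 mitochondrial members without that tumor, against 9.02% of the 20529 genes then tested, and by edgeR none was called at a smallest adjusted p of 0.266.

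**Figure D2:**
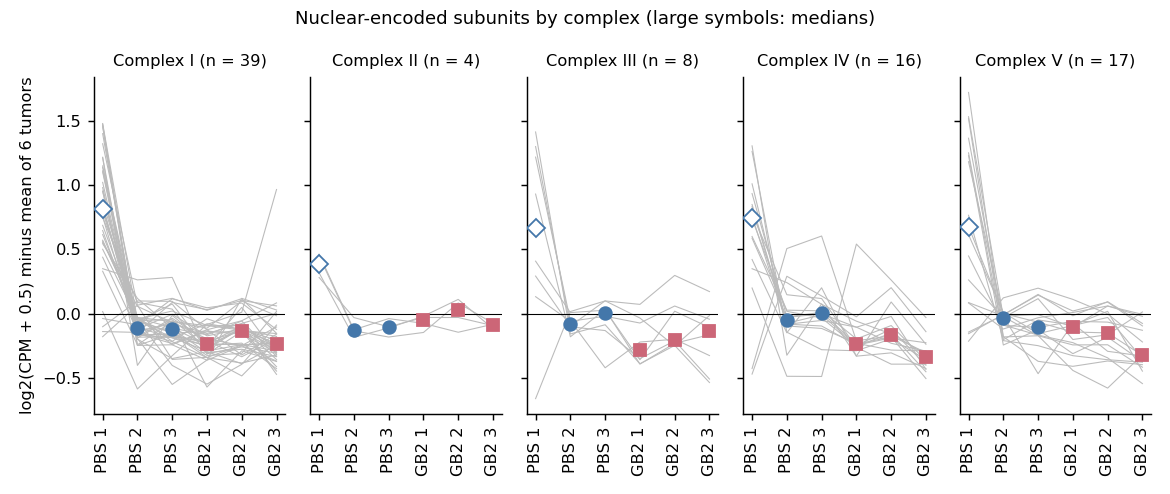
Each tested nuclear-encoded subunit (grey line) in each tumor as log2(CPM + 0.5) minus its mean over the 6 tumors, by complex, with medians as large symbols. The medians of PBS tumor 1 lie above those of the other 5 tumors in each complex, and those 5 tumors lie close together.

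By complex, the median log2 fold change of the nuclear members was -0.47 in complex I (39 tested), -0.11 in complex II (4), -0.45 in complex III (8), -0.61 in complex IV (16) and -0.40 in complex V (17). Without PBS tumor 1 the medians were -0.09, 0.08, -0.12, -0.21 and -0.09. Complex IV kept the lowest median of the 5 complexes in both settings, and 15 of its 16 tested members were below 0 in both. Its summed level was 2771, 1519 and 1542 CPM in PBS and 1372, 1416 and 1240 CPM in GB2 tumors. These groups did not overlap with or without PBS tumor 1. The sum of complex I was 4969, 2737 and 2764 CPM in PBS and 2559, 2688 and 2619 CPM in GB2 tumors, with all GB2 tumors below all PBS tumors by a small step. The sum of complex V, 7006, 5150 and 5300 CPM in PBS and 5176, 5435 and 5010 CPM in GB2 tumors, overlapped.

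Complex II, succinate dehydrogenase, also belongs to the citric acid cycle and is encoded by the nucleus alone. Its sum was 1459, 1017 and 1042 CPM in PBS and 1067, 1119 and 1044 CPM in GB2 tumors. PBS tumor 1 was highest in all 4 members, and without it 3 of 4 estimates were above 0. Sdhb, the iron-sulfur subunit, had 515, 343 and 364 CPM in PBS and 355, 338 and 353 CPM in GB2 tumors. The membrane anchors Sdhc and Sdhd had log2 fold changes of -0.11 (SE 0.17) and -0.12 (SE 0.22) with all tumors, and 0.03 and 0.13 without PBS tumor 1. Sdha, the flavoprotein, was at -0.03 with all tumors and at 0.16 without that one.

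In complex I, Ndufv3, an accessory subunit of the electron-entry module, had the smallest p of all members. Its level was 97.6, 91.8 and 93.1 CPM in PBS and 61.4, 69.4 and 56.0 CPM in GB2 tumors. All 3 GB2 tumors were below all 3 PBS tumors, and PBS tumor 1 was close to the other PBS tumors. The log2 fold change was -0.60 (SE 0.16), with an edgeR adjusted p of 0.345. By DESeq2 its adjusted p was 0.018, below 0.05, and it missed a call there because the difference was under 2-fold. Without PBS tumor 1 it was -0.56 (SE 0.12), with an edgeR adjusted p of 0.266. The table places the gene at positions 31739089 to 31750305 of chromosome 17, plus strand, which is not its place in GRCm38.

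Other complex I accessory subunits were lower in GB2 tumors mainly through PBS tumor 1. Ndufa1 had 26.0, 16.3 and 15.7 CPM in PBS and 12.2, 12.7 and 12.2 CPM in GB2 tumors. Here the PBS tumors stayed above the GB2 tumors without the first as well, at a log2 fold change of -0.64 (SE 0.25) with it and -0.35 (SE 0.16) without it. Ndufa2 had 73.2 CPM in PBS tumor 1, 23.4 and 25.4 CPM in the other PBS tumors and 17.6 to 21.5 CPM in GB2 tumors. Ndufa13, also known as GRIM-19, had 157 CPM in PBS tumor 1 and 45.3 to 53.8 CPM elsewhere. Ndufa5 had 133 CPM there and 32.3 to 45.9 CPM elsewhere, with groups that overlapped. Ndufb9, the nuclear-encoded complex I subunit with the highest mean FPKM (149), had 350 CPM there and 109 to 149 CPM elsewhere. For the last 3 genes the log2 fold changes of -0.91, -0.93 and -0.70 became -0.16, -0.10 and -0.05 without PBS tumor 1.

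In complex III, Uqcr11 had 87.5, 29.1 and 30.6 CPM in PBS and 24.7, 27.3 and 22.3 CPM in GB2 tumors, and the hinge protein Uqcrh had 267, 101 and 98.5 against 84.6, 93.2 and 75.7 CPM. In both the GB2 tumors were below all PBS tumors, with log2 fold changes of -0.99 (SE 0.43) and -0.88 (SE 0.39) that became -0.26 and -0.22 without PBS tumor 1. Uqcrb was at -0.68 with all tumors and at -0.01 without PBS tumor 1. The Rieske iron-sulfur protein Uqcrfs1, with 156 ± 21.0 CPM (SD, n = 3) in PBS and 135 ± 12 CPM (SD, n = 3) in GB2 tumors, overlapped. Uqcrc2, a core protein, was the only nuclear-encoded member of this complex that was lower in PBS tumor 1 than elsewhere, by 0.80 on the log2 scale, and its fold change was 0.33 (SE 0.23) with and 0.14 without that tumor.

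In complex IV, the most abundant nuclear subunits were Cox4i1, with a mean of 205 FPKM, and Cox6a1, with 196 FPKM. Cox4i1 had 552, 308 and 315 CPM in PBS and 303, 278 and 267 CPM in GB2 tumors. Cox6a1 had 266, 137 and 140 CPM in PBS and 118, 123 and 97.8 CPM in GB2 tumors. Both had every GB2 tumor below every PBS tumor with and without PBS tumor 1, by a log2 fold change of -0.68 (SE 0.29) for Cox6a1 with all tumors and -0.28 (SE 0.13) without that one. Cox7b was lower in GB2 tumors in the same way, at -0.46 (SE 0.21) and -0.23. Cox7a2l, which takes part in joining complexes III and IV, had 347 CPM in PBS tumor 1 and 104 to 148 CPM elsewhere, and its groups overlapped. Cox8a differed from these: it was lowest in PBS tumor 1, at 79.9 CPM against 101 to 136 CPM elsewhere, and its log2 fold change was 0.00 with and -0.18 without that tumor.

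In complex V, the catalytic subunits Atp5a1 and Atp5b were the most abundant nuclear members per length, with means of 380 and 418 FPKM, and were nearly level. Atp5b had 1963, 1706 and 1813 CPM in PBS and 1864, 1931 and 1846 CPM in GB2 tumors, at a log2 fold change of 0.04 (SE 0.17) with all tumors and 0.11 without PBS tumor 1. Atp5a1 was at -0.04 (SE 0.16) and 0.01. Atp5e had 130 CPM in PBS tumor 1 and 29.3 to 34.4 CPM elsewhere, and Atp5h, of the peripheral stalk, had 436 and 117 to 131 CPM. Their log2 fold changes of -1.13 and -0.96 became -0.11 in both without that tumor. Atp5mpl had 123, 41.5 and 37.4 CPM in PBS and 30.9, 28.1 and 33.7 CPM in GB2 tumors, and its groups did not overlap. Its log2 fold change was -1.12 (SE 0.45) with all tumors and -0.34 (SE 0.13) without PBS tumor 1.

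The proteolipid that forms the ring of complex V is encoded by 3 nuclear genes with different import signals. Atp5g1 had a mean of 14.7 FPKM, Atp5g2 of 85.4 FPKM and Atp5g3 of 120 FPKM, so the order of levels was the same as their numbers. On the log2 scale of FPKM + 0.1, the ratio of Atp5g2 to Atp5g1 was 0.24 higher in GB2 than in PBS tumors, and that of Atp5g3 to Atp5g1 differed by -0.11. Against PBS tumors 2 and 3 alone the differences were 0.091 and 0.11, so the direction of the Atp5g3 ratio turned. Both ratios overlapped between groups with all tumors.

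**Figure D3:**
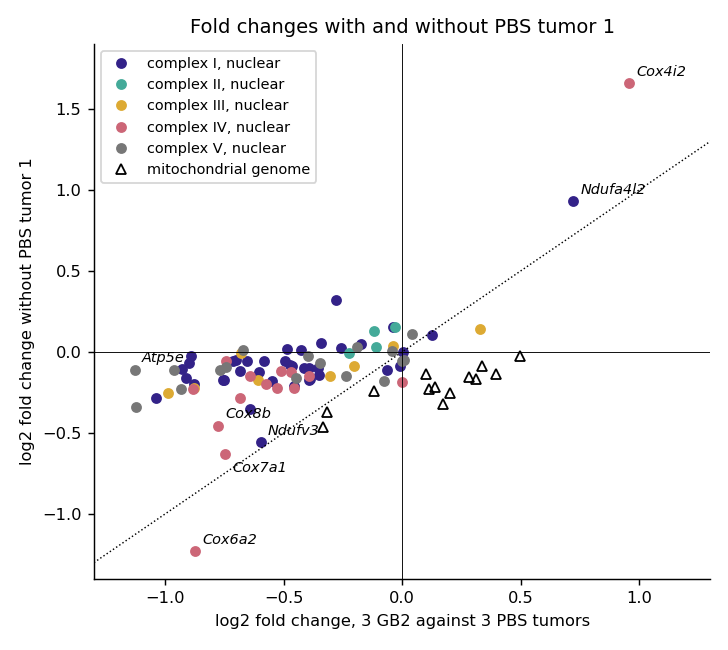
Log2 fold change (GB2 against PBS) of each tested member with all 6 tumors (x axis) and without PBS tumor 1 (y axis), with equal values on the dotted line. Most nuclear members lie near 0 on the y axis, the 13 mitochondrial members (triangles) lie below 0 on it, and Cox6b2, at -4.34 and -3.65, is outside the axes.

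PBS tumor 1 also differed by gene length over the whole transcriptome, and the nuclear members are short. The length implied by a gene's count and FPKM had a median of 1593 bases in tested nuclear members and 3710 bases in all genes tested. For other genes of 500 to 1000 bases, the median difference of PBS tumor 1 from the mean of the other 5 tumors was 0.51 on the log2 CPM scale. It was 0.31 at 1000 to 2000 bases, 0.16 at 2000 to 3000 bases and -0.21 above 5000 bases. Nuclear members lay above other genes of their length: their medians were 1.13 (19 genes), 1.01 (30 genes) and 0.86 (14 genes) in the first 3 of these bands. In the bands under 500 bases (3 genes), of 3000 to 5000 bases (13 genes) and above 5000 bases (5 genes) they were 0.92, 0.38 and 1.07. With an offset for gene length, added after seeing the data, the median log2 fold change of nuclear members was -0.33, against -0.47 without the offset. For mitochondrial members it was 0.27 with and 0.17 without the offset. That fit compares the groups, so the part of length in the levels of PBS tumor 1 alone was not tested. The part of RNA quality or of red cell content in these levels was not tested either. The study's methods describe a lower limit of RNA quality for libraries and give no value per tumor.

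**Figure D4:**
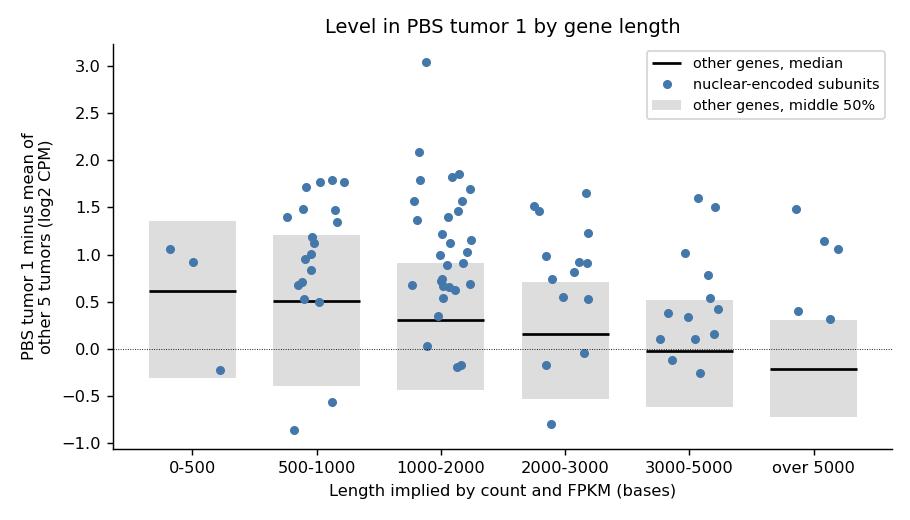
Difference of PBS tumor 1 from the mean of the other 5 tumors (log2 CPM) by gene length in bases. Grey boxes give the middle 50% and lines the median of other genes, which go from 0.62 in the shortest to -0.21 in the longest band, and points are the 84 tested nuclear-encoded subunits.

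A further comparison concerns subunits that exist in a common and a tissue-restricted form. Cox4i2 is a form of the complex IV regulatory subunit that is typical of lung and of cells that sense oxygen, and Ndufa4l2 is a hypoxia-inducible relative of Ndufa4. Cox4i2 had 41, 17 and 17 estimated counts in PBS and 85, 62 and 44 in GB2 tumors, or 0.693, 0.241 and 0.240 against 1.01, 0.745 and 0.518 CPM. The groups overlapped through PBS tumor 1 alone, at a log2 fold change of 0.96 (SE 0.59). Without it the GB2 tumors were higher with no overlap, at 1.66 (SE 0.50) and an edgeR adjusted p of 0.370. Its log2 ratio to Cox4i1 (FPKM + 0.1) was -8.49, -8.98 and -9.02 in PBS and -7.16, -7.43 and -7.87 in GB2 tumors, which did not overlap.

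Ndufa4l2 had 5.11, 3.19 and 3.92 CPM in PBS and 4.73, 5.09 and 10.3 CPM in GB2 tumors, so GB2 tumor 3 was well above the other GB2 tumors. The log2 fold change was 0.72 (SE 0.38) with all tumors, 0.93 (SE 0.41) without PBS tumor 1 and 0.27 without GB2 tumor 3. Ndufa4 itself was lower in each GB2 tumor, at 154 to 170 CPM against 174 to 269 CPM. The log2 ratio of Ndufa4l2 to Ndufa4 was -5.36, -5.52 and -5.11 in PBS and -4.71, -4.56 and -3.70 in GB2 tumors, with no overlap.

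Markers of several stromal and immune cell types also had estimates above 0. Adipocyte markers were above 0 in 7 of 8 (median log2 fold change 0.67 with and 1.04 without PBS tumor 1). They summed to 15.7 to 57.4 CPM in PBS and 51.4 to 72.1 CPM in GB2 tumors, which overlapped. Keratinocyte and skin markers were above 0 in 5 of 6 (0.37 and 0.60), and tested tumor epithelium markers in 4 of 4 (0.45 and 0.78). The keratinocyte and skin markers summed to 20.4 to 83.1 CPM in PBS and 66.6 to 114 CPM in GB2 tumors. These sums overlapped, as did those of tumor epithelium given above. None of the adipocyte, keratinocyte or tumor epithelium markers was called by edgeR or DESeq2, and 1, of tumor epithelium, had an unadjusted p under 0.05. The 9 pericyte and smooth muscle markers summed to 72.3 to 98.3 CPM in PBS and 119 to 150 CPM in GB2 tumors, with 9 of 9 estimates above 0, none of them called by edgeR and 2 of them at an unadjusted p under 0.05. The 6 endothelial markers summed to 45.8 to 55.3 and 114 to 128 CPM, the 8 macrophage markers to 61.8 to 86.9 and 245 to 343 CPM, and the 6 fibroblast markers to 274 to 508 and 947 to 1323 CPM. All 6 endothelial, 8 macrophage and 6 fibroblast markers were above 0 at an unadjusted p under 0.05, and none was called by edgeR. DESeq2 called 3, 6 and 6 of them and none of the pericyte markers. Over all genes tested, 6.94% had an unadjusted edgeR p under 0.05 and DESeq2 called 1.96%. The 5 erythroid markers were below 0 (median log2 fold change -2.93 with and -1.71 without PBS tumor 1), 3 of 5 at an unadjusted p under 0.05. They summed to 507 to 7473 CPM in PBS and 94.6 to 1271 CPM in GB2 tumors, which overlapped. Of 6 T cell markers 5 were below 0 (median -0.32 and -0.47 over the 6), none at such a p. They summed to only 0.368 to 5.29 CPM in PBS and 0.643 to 3.26 CPM in GB2 tumors, which overlapped at a low level. None of the erythroid or T cell markers was called by edgeR or DESeq2. Proliferation markers were above 0 in 3 of 6 (median 0.00 with and 0.21 without PBS tumor 1), none called or at such a p. They summed to 1205 to 2306 CPM in PBS and 1599 to 1790 CPM in GB2 tumors. None of the defining markers was at 0 in all tumors. In bulk tissue a change in the number of cells of a type and in RNA per cell cannot be told apart, and the part of these cells in the subunit levels was not tested.

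The levels of 3 subunit forms typical of heart and skeletal muscle are set beside the muscle markers. The 12 skeletal muscle markers summed to 113 to 198 CPM in PBS and 244 to 279 CPM in GB2 tumors, with 12 of 12 estimates above 0. Of these markers 6 had an unadjusted edgeR p under 0.05, against 6.94% of all genes tested. None was called by edgeR, and 1 was called by DESeq2, against 1.96% of all genes. The 5 cardiac or slow muscle markers summed to 1.69 to 3.11 CPM in PBS and 2.83 to 3.68 CPM in GB2 tumors, which overlapped, with 4 of 4 tested estimates above 0 at a median of 0.38, none called by either tool or at an unadjusted p under 0.05. Cox6a2 had 0.423, 1.26 and 1.39 CPM in PBS and 0.572, 0.601 and 0.506 CPM in GB2 tumors. Its GB2 tumors lay between PBS tumor 1 and the other PBS tumors, and without PBS tumor 1 the log2 fold change was -1.23 (SE 0.34), with an edgeR adjusted p of 0.336. Cox7a1 had 1.05, 0.937 and 0.778 CPM in PBS and 0.667, 0.589 and 0.388 CPM in GB2 tumors, which did not overlap, at -0.75 (SE 0.41) with and -0.63 (SE 0.42) without PBS tumor 1. Cox8b had 15 to 38 estimated counts per tumor and overlapped. The ratios to the common forms Cox6a1, Cox7a2 and Cox8a all overlapped between groups with all tumors. For Cox6a2 and Cox7a1 the overlap came from PBS tumor 1 alone. The log2 ratio of Cox6a2 to Cox6a1 was -9.05, -6.65 and -6.56 in PBS and -7.50, -7.49 and -7.39 in GB2 tumors, a difference of -0.045 with and -0.86 without that tumor. That of Cox7a1 to Cox7a2 differed by -0.35 with and -0.46 without it, and that of Cox8b to Cox8a, which overlapped in both settings, by -0.76 and -0.27. With a larger constant added to FPKM, the Cox7a1 difference over all tumors was much smaller in size, as given in the closing section.

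**Figure D5:**
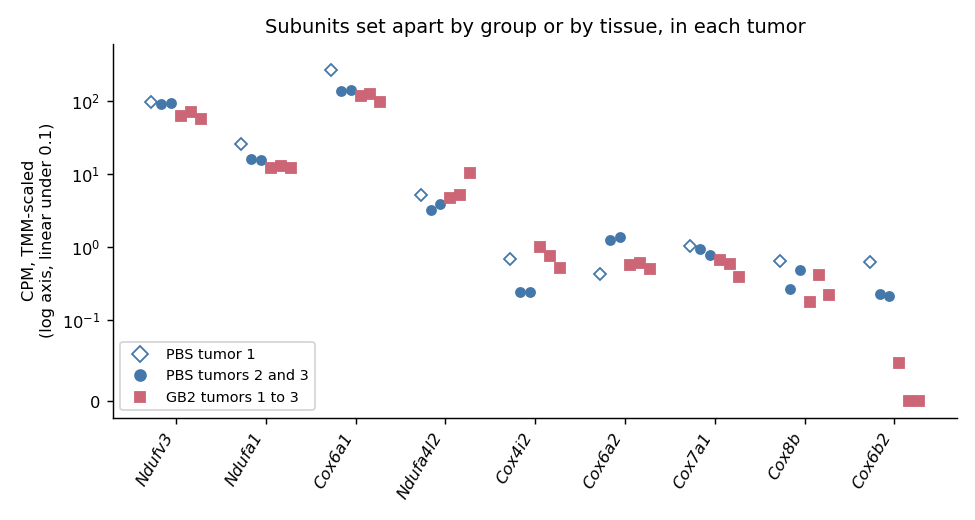
Level of 9 nuclear-encoded subunits in each tumor, in CPM on an axis that is logarithmic above and linear below 0.1. The 3 GB2 tumors lie below all PBS tumors for Ndufv3, Ndufa1, Cox6a1, Cox7a1 and Cox6b2, and Cox4i2 is higher in GB2 tumors than in PBS tumors 2 and 3.

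Cox6b2, the testis form of Cox6b1, was near the limit of counting. It had 37, 16 and 15 estimated counts in PBS and 4, 0 and 0 in GB2 tumors. If 4 counts are taken as 1 read pair, this is 17 read pairs against 1, and the ratio of PBS to GB2 per total count was 20.6, with an exact 95% interval of 3.22 to 860 that covers counting error only. That factor is an assumption, since counts of 1 and 2 are also common in the table, and the interval depends on it. Cox6b1 had 215, 114 and 113 CPM in PBS and 102, 106 and 103 CPM in GB2 tumors, a log2 fold change of -0.51 (SE 0.27) with all tumors and -0.12 without PBS tumor 1. The 3 members not tested are listed as processed pseudogenes: Ndufa11b had no counts in any tumor, Ndufs6b had 5 to 16 counts per tumor and Cox6c2 had 3 to 13.

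Genes around the respiratory chain were taken from lists outside the name rule. None of their genes was called by edgeR. Of 45 tested assembly factors, which build the complexes, 38 were below 0 with all tumors, at a median log2 fold change of -0.29, and 21 of 45 without PBS tumor 1, at 0.02. The largest estimates were -1.08 for Pet100, a complex IV assembly factor, and 0.32 for Taco1, an activator of mt-Co1 translation, and without PBS tumor 1 they were -0.24 and 0.36. Of 19 electron carrier genes 10 were below 0, with a median of -0.04 and extremes of -0.66 for Etfb and 0.43 for Sqor. With that tumor left out the median was 0.06, Etfb was at -0.17 and Sqor at 0.43.

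A list of 5 genes with names outside the rule held subunits and proteins associated with the complexes. Of these, Higd1a was at -0.88 (SE 0.31), with every GB2 tumor (80.6 to 99.1 CPM) below every PBS tumor (116 to 248 CPM). The gene of cytochrome c1, Cyc1, was at 0.35. With PBS tumor 1 left out, Higd1a was at -0.43 and Cyc1 at 0.11. The 25 genes of mitochondrial transcription and RNA handling had a median of -0.07, with Slirp, which stabilizes mitochondrial mRNA, at -0.84 and Fastkd3 at 0.42, and without that tumor the median was 0.01, Slirp at -0.27 and Fastkd3 at 0.34. The 10 nuclear regulators had a median of 0.00, from -0.31 for Yy1 to 0.44 for the coactivator Ppargc1a, and without that tumor a median of 0.13, with these genes at -0.16 and 0.55. The 21 genes of the citric acid cycle and pyruvate entry had a median of 0.00, from -0.32 for Mpc2 to 0.67 for Pdk4, and without that tumor a median of 0.06, with these genes at 0.21 and 0.89. The 18 glycolysis rows had a median of -0.19 with and -0.16 without PBS tumor 1, from -0.67 for Aldoc to 0.23 for Pgam1, which without it were at -0.93 and -0.07. The shift of PBS tumor 1 seen in the nuclear subunits was thus also present in the assembly factors (a median of 0.79 above the other tumors) and was smaller in the citric acid cycle list (0.10).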

How the data were processed

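Bulk RNA-seq libraries from poly(A) RNA of 3 PBS and 3 GB2 tumors were made with a dUTP strand-marking kit and read in pairs. Per the labels' processing notes, the authors used cutadapt 1.9, HISAT2 2.2.1 and StringTie 2.1.6 with genome build mm10. The authors deposited estimated counts, which are whole numbers, and FPKM for 33965 genes. The table's start and end positions equalled those of GRCm38 for 2.00% of 31999 shared genes and for all 13 mitochondrial members, so the table's position is printed for Ndufv3 only and named as such, and positions of promoters, pseudogenes and mitochondrial genes are those of GRCm38. Among low counts 4 is the most common value (7017 values), but 1 (5446) and 2 (4996) are also common, so the 4 counts per read pair used for the limit of counting, 3 read pairs, are an assumption. Counts were tested with edgeR 4.0.16 in R 4.3.3 (quasi-likelihood, filterByExpr with a minimum count of 10, TMM scaling, Benjamini-Hochberg adjustment over 19602 genes), with the study's limits of adjusted p under 0.05 and at least 2-fold. CPM are TMM-scaled. Fold changes from FPKM used limma 3.58.1 on log2 values. DESeq2 1.42.0, other scalings and filters, a replicate block and each library left out were alternatives, and an offset for gene length was added after seeing the data. The test was also run on simulated counts, whose outcome is not given here and is not used above. The members, lists and the named-gene rule (all mitochondrial members, the 3 largest fold changes and 2 highest levels per complex, an unadjusted p under 0.05, isoform pairs, and the largest estimate each way per list) were chosen with earlier results of these data known. The pairs Cox7b with Cox7b2 and Uqcrh with Uqcrhl were not analysed here.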

Additional observations from a re-analysis of the deposited data

How the results depend on the processing

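No member was called under any setting run, while the count of all genes called went from 0 with edgeR to 385 with DESeq2 (352 higher and 33 lower in GB2). The median log2 fold change of nuclear members was -0.47 and ran from -0.61 to -0.10 when each tumor was left out in turn, the last value without PBS tumor 1, and that of mitochondrial members, 0.17, ran from -0.22 to 0.53. The sign of 13 of 48 named members turned without PBS tumor 1, and of 0 to 5 of those fitted in every other setting. With an offset for gene length, added after seeing the data, the medians were -0.33 and 0.27. On log2(FPKM + 1) they were -0.33 and 0.65. With 1 in place of 0.1 added to FPKM, the difference in log2 ratio between groups went from 1.34 to 0.77 for Cox4i2 to Cox4i1, from -1.26 to 0.045 for Cox6b2 to Cox6b1 and from -0.35 to -0.086 for Cox7a1 to Cox7a2, as a larger constant flattens genes under 1 FPKM. Tumors with the same number did not deviate together (correlations of 0.03, 0.15 and -0.24, and 1 of 6 tumors closest to its own number), and with the replicate block no gene was called and the medians were -0.41 and 0.52. Genes with under 12 counts per tumor are taken as at the limit of counting.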
